A study of Mus musculus with 12 samples.

Results

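Diphtheria toxin was used to remove part of the beta cells of mouse islets. Of 48709 genes in the table, 72 are treated as rising late, at 3 days after toxin, though some had already risen by day 1. They were chosen by their measured values: a mean of at least 1 CPM (a gene's count scaled to a common library total) at day 3, and a lowest day 3 library at least 2 times the highest of the 6 libraries from untreated mice and from day 1. A further 12 genes met these numbers but were left out by name, as members of the Egr, Jun, Cxcl or histone families. The difference between day 3 and the earlier groups is therefore how the genes were picked and is given below as a description, without a test. What the choice did not use is day 5.

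RNA came from pancreatic islets of female mice of the NSG strain with the genotype NSG RIP-DTR Htz. NSG mice lack mature T, B and natural killer cells, and in the RIP-DTR transgene the rat insulin promoter drives the receptor for diphtheria toxin, so that toxin kills the beta cells that carry it. All 4 groups share this strain and transgene, and each has 3 libraries: CTRL, which received no treatment, and toxin-treated mice labelled DT 1 DPA, DT 3 DPA and DT 5 DPA, read here as days post-ablation. The labels state neither age nor which animal a library came from, so the p-values below measure only the spread between these libraries, which may be technical.

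Islets are clusters of insulin-secreting beta cells with glucagon-secreting alpha cells, somatostatin-secreting delta cells and pancreatic polypeptide cells. In endocrine cells as in neurons, depolarization, cyclic AMP and growth factor signals switch on immediate early genes, mostly transcription factors such as the Egr, Fos and Atf3 proteins, and these are followed by delayed genes for secreted peptides, enzymes and synaptic scaffolds. CREB proteins act at cyclic AMP response elements (CRE), Fos-Jun dimers at AP-1 sites, and NF-kB drives its own inhibitors.

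Library totals ran from 29867083 to 50012558 counts. The summed CPM of 10 acinar markers varied widely within groups, from 11483 to 70682 in CTRL and from 4915 to 14110 at 3 DPA. Stromal markers summed to between 771 and 2397 in CTRL, 768 and 1011 at 1 DPA, 1573 and 2287 at 3 DPA, and 3284 and 5625 at 5 DPA. Macrophage markers summed to between 146 and 611, 108 and 141, 237 and 422, and 671 and 944 in the same groups, with CTRL and 3 DPA overlapping. In whole islets a smaller number of cells of a type and less RNA per cell cannot be told apart.

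The 72 genes were mostly of low abundance. Their mean at 3 DPA was under 10 CPM for 53, between 10 and 100 for 14 and above 100 for 5: Vgf, Ier2, Zbtb10, Atf3 and P2rx7. In CTRL 50 had a mean under 1 CPM, 10 of them with no count in any CTRL library. Protein-coding genes made up 60, and the other 12 were mainly antisense and long intergenic RNAs. Relative to its own 3 DPA mean, the median gene stood at 5.83%, 3.62% and 3.03% in the CTRL libraries, 9.70%, 12.3% and 18.2% at 1 DPA, 135%, 83.6% and 81.9% at 3 DPA, and 40.8%, 37.7% and 37.2% at 5 DPA. The low CTRL and day 1 levels follow from the choice; at day 5 the median gene stood below its day 3 level and above both.

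**Figure D1:**
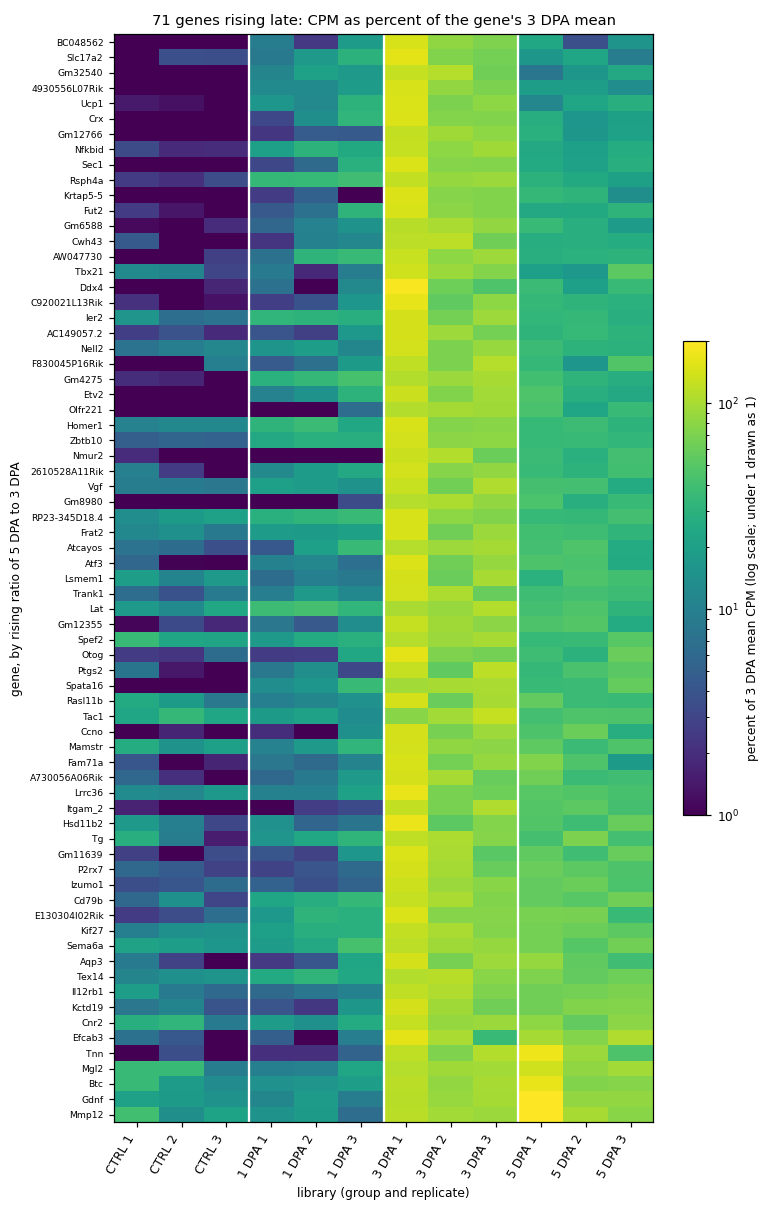
Each row is 1 of 71 of the 72 genes and each column 1 of the 12 libraries; colour gives CPM as a percent of the gene's 3 DPA mean on a log scale, and rows are ordered by the ratio of 5 DPA to 3 DPA. The 3 DPA block is brightest in nearly all rows, 3 DPA replicate 1 most of all, and the last 5 rows are as bright at 5 DPA.

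Among transcription factors and other early response genes, 5 members stood out by level. Atf3 (chr1:191170296-191218039, minus strand), a stress-induced bZIP factor, had 11.2, 1.99 and 0.987 CPM in CTRL, 19.7, 22.4 and 13.3 at 1 DPA, 290, 121 and 168 at 3 DPA, and 88.6, 84.8 and 49.6 at 5 DPA. No library of a group reached into the next, and the 3 DPA mean was 40.9 times the CTRL mean and 10.5 times that of 1 DPA. Ier2 (chr8:84661331-84662852, minus strand), a short immediate early nuclear protein, had 57.7, 24.5 and 27.5 CPM in CTRL, 119, 112 and 102 at 1 DPA, 512, 240 and 338 at 3 DPA, and 121, 124 and 101 at 5 DPA. Its 1 and 5 DPA libraries lay at the same height, above CTRL and below 3 DPA. Zbtb10 (chr3:9250602-9285333, plus strand), a zinc finger repressor, had 16.2, 18.3 and 17.0 CPM in CTRL, 78.9, 93.2 and 91.0 at 1 DPA, 449, 257 and 266 at 3 DPA, and 112, 116 and 109 at 5 DPA. All 4 groups were apart for this gene, and its rise from CTRL to 3 DPA was 18.8-fold.

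Nfkbid (chr7:30421732-30428746, plus strand) encodes an atypical nuclear inhibitor of NF-kB. It had 2.56, 1.43 and 1.51 CPM in CTRL, 15.4, 23.4 and 19.2 at 1 DPA, 95.8, 62.5 and 71.8 at 3 DPA, and 18.6, 15.3 and 20.3 at 5 DPA, so that day 5 had come back to about the day 1 range while all 9 toxin libraries stayed above CTRL. Homer1, a synaptic scaffold gene with an activity-induced short form, had 8.76, 9.78 and 9.85 CPM in CTRL, 25.9, 30.5 and 19.989 at 1 DPA, 121, 62.7 and 65.4 at 3 DPA, and 28.8, 31.6 and 25.5 at 5 DPA. It too returned to about its day 1 range. Per transcript length, in TPM (reads scaled for length and depth), the highest 3 DPA means were 554 for Ier2, 304 for Vgf, 209 for Atf3, 101 for Zbtb10, 75.8 for Nfkbid and 53.8 for P2rx7.

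**Figure D2:**
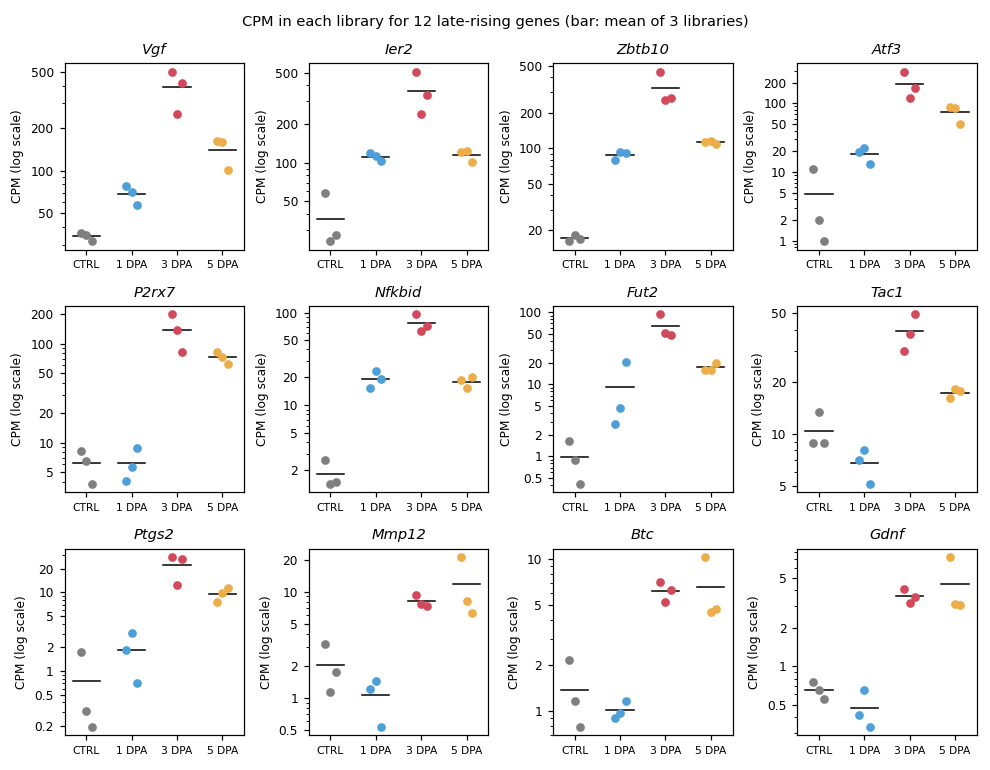
Points are CPM in single libraries (log axis) of 12 of the genes, and bars are means of the 3 libraries of a group. In the first rows most genes peak at 3 DPA and lie between 1 DPA and 3 DPA at day 5, whereas for Mmp12, Btc and Gdnf the 5 DPA replicate 1 library is the highest of all 12.

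Secreted peptides and factors formed the next group. Vgf (chr5:137026392-137033351, plus strand), the precursor of several neuroendocrine peptides of dense core granules, had 36.5, 35.3 and 31.8 CPM in CTRL, 78.1, 70.8 and 57.6 at 1 DPA, 503, 251 and 416 at 3 DPA, and 162, 158 and 101 at 5 DPA. The groups did not overlap, and 3 DPA was 11.3 times CTRL. Tac1, the precursor of substance P and neurokinin A, behaved differently at day 1. It had 8.84, 13.3 and 8.82 CPM in CTRL, 7.01, 8.08 and 5.12 at 1 DPA, 30.3, 37.9 and 49.2 at 3 DPA, and 16, 18.1 and 17.7 at 5 DPA, so the 1 DPA libraries were the lowest of all. Nell2, a secreted neuronal glycoprotein, had 2.74, 3.51 and 4.30 CPM in CTRL, 5.68, 6.98 and 4.15 at 1 DPA, 51.6, 26 and 32.6 at 3 DPA, and 13.6, 11.2 and 11.1 at 5 DPA. Its 3 DPA mean was 10.4 times that of CTRL, whose highest library passed the lowest of 1 DPA.

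Growth factors and matrix proteins rose from low levels. Btc (betacellulin, an EGF receptor ligand) had 2.17, 1.16 and 0.79 CPM in CTRL, 0.899, 0.971 and 1.17 at 1 DPA, 7.05, 5.20 and 6.22 at 3 DPA, and 10.3, 4.52 and 4.70 at 5 DPA. Gdnf, a neurotrophic factor that signals through RET, had 0.749, 0.648 and 0.549 CPM in CTRL, 0.411, 0.656 and 0.335 at 1 DPA, 4.10, 3.16 and 3.54 at 3 DPA, and 7.27, 3.08 and 3.03 at 5 DPA. For both, CTRL and 1 DPA overlapped and every library of 3 and 5 DPA lay above them. Tnn (tenascin N, a matrix glycoprotein) had 2 counts over the 3 CTRL libraries and 167 over those of 3 DPA, a ratio in CPM of 82.6 (95% counting interval 22.5 to 688). Its 5 DPA libraries had 2.17, 1.12 and 0.566 CPM and spanned the 3 DPA values of 1.5, 0.894 and 1.36.

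Mmp12, the macrophage elastase, had 3.23, 1.14 and 1.73 CPM in CTRL, 1.21, 1.44 and 0.536 at 1 DPA, 9.24, 7.66 and 7.29 at 3 DPA, and 21.1, 8.14 and 6.28 at 5 DPA. Its day 5 mean was the largest of the 4, carried by 1 library.

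Receptors, channels and enzymes made up a further set. P2rx7 (chr5:122643911-122691432, plus strand), an ATP-gated cation channel, had 8.11, 6.52 and 3.82 CPM in CTRL, 4.11, 5.62 and 8.71 at 1 DPA, 197, 136 and 81.4 at 3 DPA, and 81.8, 73.5 and 62.3 at 5 DPA. CTRL and 1 DPA shared the same range, with means of 6.15 and 6.14 CPM, while 3 DPA was 22.5 times either. Ptgs2 (cyclooxygenase-2, which makes prostaglandin precursors) had 1.76, 0.313 and 0.197 CPM in CTRL, 1.85, 3.07 and 0.703 at 1 DPA, 28.1, 12.3 and 26.6 at 3 DPA, and 7.59, 9.78 and 11.4 at 5 DPA. Days 3 and 5 did not overlap. Nmur2, a neuromedin U receptor, had 1 count in all CTRL libraries, none at 1 DPA, 170 at 3 DPA and 62 at 5 DPA, and its ratio of 3 DPA to CTRL was 168 (counting interval 29.8 to 6682).

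Sema6a, a transmembrane semaphorin of axon guidance, had 10.6, 9.65 and 8.05 CPM in CTRL, 9.40, 12.3 and 21.5 at 1 DPA, 59.2, 47.4 and 43.8 at 3 DPA, and 33.3, 24.9 and 32.4 at 5 DPA. It kept more of its day 3 level than the median gene, at a ratio of 0.603. Ucp1, the uncoupling protein of brown fat, had 232 counts at 3 DPA against 2 in CTRL, a ratio of 115 (counting interval 31.4 to 953), and its mean was 1.74 CPM at 3 DPA and 0.361 at 5 DPA. Slc17a2, of the sodium-phosphate transporter family, had 0, 0.0447 and 0.0439 CPM in CTRL, 0.103, 0.21 and 0.368 at 1 DPA, 1.95, 0.894 and 0.803 at 3 DPA, and 0.202, 0.28 and 0.113 at 5 DPA. Both had fallen to about their 1 DPA range by day 5. Cwh43, a gene of lipid remodelling of membrane anchors, had 4 counts in CTRL and 19 at 1 DPA, then 296 at 3 DPA and 86 at 5 DPA.

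The 10 genes with no count in CTRL were Gm8980, Gm12766, Krtap5-5, Olfr221, BC048562, 4930556L07Rik, Gm32540, Spata16, Etv2 and Crx, several of them named here after their values were seen. Crx is a transcription factor of photoreceptors, Etv2 of blood and vessel progenitors, and Spata16 a spermatogenesis gene. For scale, the pooled 3 DPA level was set against a floor of 3 counts in the CTRL libraries together. The ratio was 214 for Crx, 192 for Gm12766, 129 for the olfactory receptor gene Olfr221 and 85.1 for Gm8980. For the hair keratin-associated gene Krtap5-5 it was 44.2, the lowest of the 10. The floor is a convention and no strict limit, and the 3 DPA count enters without its own counting error. Levels stayed low all the same: Crx had 0.154, 0.682 and 1.61 CPM at 1 DPA, 7.49, 3.63 and 3.58 at 3 DPA, and 1.34, 0.80 and 0.99 at 5 DPA. Gm8980 overlaps Lipo3 on the same strand, whose mean moved from 23.8 CPM in CTRL to 30.4 at 3 DPA, and how reads were shared between the pair in counting is not given in the sources used here.

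Several members are known from immune cells. Mgl2, a C-type lectin of macrophages and dendritic cells, had 2.38, 2.39 and 0.614 CPM in CTRL, 0.642, 0.682 and 1.51 at 1 DPA, 7.33, 6.09 and 6.22 at 3 DPA, and 8.95, 5.46 and 6.31 at 5 DPA. Its day 3 and day 5 libraries overlapped. Tbx21 (T-bet, the T helper 1 and natural killer cell factor) had 0.181, 0.156 and 0.0439 CPM in CTRL, 0.128, 0.0262 and 0.134 at 1 DPA, 1.95, 1.29 and 1.07 at 3 DPA, and 0.283, 0.24 and 0.764 at 5 DPA, with day 5 between CTRL and day 3. Cd79b, Lat, Il12rb1 and Cnr2, picked out after their values were seen, had 3 DPA means of 4.39, 1.64, 3.26 and 6.06 CPM and CTRL means of 0.339, 0.293, 0.369 and 1.41. Itgam_2, annotated in GENCODE as a separate gene that overlaps the integrin gene Itgam_1 on the same strand, had 2 counts in CTRL, 405 at 3 DPA and 197 at 5 DPA, while Itgam_1 had means of 5.27, 1.96, 7.98 and 11.3 CPM in CTRL and at 1, 3 and 5 DPA.

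Markers of those cells were at hand as a list. All 12 macrophage markers were above 3 counts, with the sums given above, highest in 5 DPA replicate 3, whereas Mmp12 and Mgl2 were highest in 5 DPA replicate 1. The 6 B cell markers summed to between 10.9 and 11.9 CPM in CTRL and between 9.01 and 10.4 at 3 DPA. The 7 T and natural killer cell markers summed to between 0.241 and 27.5 CPM in CTRL, 0.236 and 0.539 at 1 DPA, 1.06 and 17.3 at 3 DPA and 5.55 and 45.9 at 5 DPA, and Cd3e was at 3 counts or fewer over all libraries. The part of such cells in the values of Mgl2, Mmp12, Tbx21, Cd79b, Lat, Il12rb1 and Cnr2 was not tested.

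Genes known from germ cells and cilia were also among the 72. Izumo1 (chr7:45621811-45628823, plus strand), the sperm protein of egg fusion, had 0.155, 0.179 and 0.285 CPM in CTRL, 0.231, 0.157 and 0.234 at 1 DPA, 5.79, 3.89 and 3.36 at 3 DPA, and 2.41, 2.66 and 1.95 at 5 DPA. CTRL and 1 DPA were alike in range, and 3 DPA was 21.1 times CTRL. Rsph4a, a radial spoke protein of motile cilia, had 1.52, 1.21 and 2.06 CPM in CTRL, 20.1, 20.6 and 23.2 at 1 DPA, 73.2, 51.4 and 53 at 3 DPA, and 17.7, 14.9 and 11.9 at 5 DPA. Unlike Izumo1 it was already 13.3 times CTRL at day 1, and its day 5 libraries all lay below those of day 1. Ddx4, a germ line RNA helicase named after its values were seen, had 3 counts in CTRL and 333 at 3 DPA (ratio 110, counting interval 37.3 to 535). Summed markers of male germ cells stayed between 1.10 and 1.97 CPM in all 12 libraries, with Prm2 and Tnp1 at 3 counts or fewer over all of them, and those of motile cilia between 39.0 and 52.0 CPM.

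Members lay close together more than once. On chromosome 7, from 45621811 to 45694402 of the mm10 build, 6 of the 72 genes followed each other: Izumo1, AC149057.2, RP23-345D18.4, Mamstr, Fut2 and Sec1. Fut2 (chr7:45648591-45666394, minus strand), a fucosyltransferase that makes the H antigen on epithelia, had 1.65, 0.894 and 0.417 CPM in CTRL, 2.85, 4.65 and 20.3 at 1 DPA, 93.7, 51.7 and 47.6 at 3 DPA, and 15.8, 16 and 19.997 at 5 DPA. The related gene Sec1 (chr7:45677686-45694402, minus strand) had 0.0775, 0 and 0.0878 CPM in CTRL, 1.00, 1.97 and 9.04 at 1 DPA, 47.1, 24.1 and 23.4 at 3 DPA, and 8, 6.50 and 8.68 at 5 DPA. In both genes 1 DPA replicate 3 stood more than 4 times above the other 1 DPA libraries and 3 DPA replicate 1 above the other 3 DPA ones. The paralogs share sequence, so reads may have been split between them in counting.

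RP23-345D18.4 and AC149057.2 lie within Rasip1 on its opposite strand. RP23-345D18.4 had 4.83, 6.48 and 7.44 CPM in CTRL, 10.3, 11.7 and 12.8 at 1 DPA, 52.8, 29.3 and 26.5 at 3 DPA, and 12.7, 12.4 and 14.9 at 5 DPA. Rasip1 itself, a vascular Ras-interacting protein, had means of 25.5, 18.0, 36.6 and 33.4 CPM in that order of groups. Whether counting used strand is not given in the sources used here, so reads of these antisense genes and of Rasip1 cannot be told apart. Izumo1 overlaps Rasip1 on the same strand, and how reads were shared between them in counting is not given either. Farther along, Dbp, a clock output factor, had means of 51.7, 519, 422 and 157 CPM, with 1 and 3 DPA libraries that overlapped. Its neighbour Sphk2 had means of 65.0, 335, 400 and 175 CPM, and Rpl18 173, 544, 602 and 335 CPM. In both of these, too, the 1 and 3 DPA libraries overlapped.

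**Figure D3:**
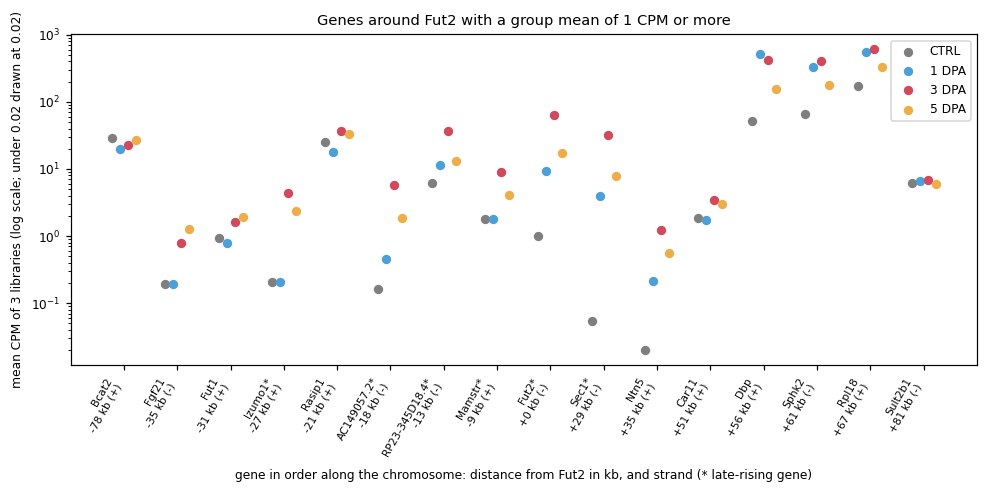
Group mean CPM on a log axis of genes around Fut2 in their order along the chromosome, with distance from Fut2 in kb and strand; stars mark the late-rising genes. The 6 starred genes are highest at 3 DPA, which the choice required over CTRL and 1 DPA. Unstarred Rasip1, Ntn5, Car11, Sphk2, Rpl18 and Sult2b1 also have their highest mean there. At both ends Bcat2 spans only 19.8 to 28.5 CPM and Sult2b1 5.97 to 6.96 CPM over the 4 groups.

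Altogether 15 of the 72 genes had another of them within 100 kb, and 17 lay on chromosome 7. Both counts include the members around Fut2 named above. The share over all tested genes was not computed for these counts. Whether members lie closer together than other genes was therefore not tested. Among the other neighbours were Atf3 and Fam71a, 5479 bases apart on the same strand, Kctd19, Lrrc36 and Hsd11b2 on chromosome 8, and the overlapping pair Efcab3 and Gm11639. Fam71a had 168 counts at 3 DPA against 3 in CTRL, a ratio of 55.4 (counting interval 18.6 to 271), at 1.26 CPM against 193 for Atf3. Lrrc36, 69 bases from Kctd19, had 7.05, 6.39 and 9.15 CPM in CTRL, 5.57, 5.59 and 11.3 at 1 DPA, 92.5, 37.3 and 34.0 at 3 DPA, and 27.4, 25.8 and 23.2 at 5 DPA. Its CTRL and 1 DPA libraries overlapped, and days 3 and 5 stood apart from them and from each other. An expressed gene within 10 kb upstream on the same strand was present for 13 of the 72 (18.1%) and for 18.7% of all tested genes, and an expressed overlapping gene for 16 (22.2%) against 23.9%. One such pair, singled out after its values were seen, is C920021L13Rik, which lies across the clock repressor gene Ciart on the other strand and had means of 0.533, 2.91, 38.8 and 12.2 CPM where Ciart had 1.06, 170, 306 and 73.2.

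Promoter sequences, from 250 bases before to 50 after a RefSeq start (build GRCm38.p6), were matched for 50 of the 72 genes by symbol. The other 22, Vgf, Ier2, Zbtb10 and Fut2 among them, had no match and were not searched. The matched promoters were searched on both strands for CRE (TGACGTCA), AP-1 (TGANTCA) and EGR (GCGTGGGCG) motifs, for NF-kB (GGGA and TTTCC with any base between), the CArG box of serum response factor and the p53 decamer. The 4 shown are those of a factor, channel, protease and sperm gene that hold a CRE or AP-1 match. Sequences run 5′ to 3′ on the plus strand, which is the gene's strand in each, with the match in capitals. Nfkbid at chr7:30422156-30422455 and Izumo1 at chr7:45621561-45621860 hold a CRE, and P2rx7 at chr5:122643677-122643976 and Mmp12 at chr9:7347124-7347423 hold AP-1.
Nfkbid: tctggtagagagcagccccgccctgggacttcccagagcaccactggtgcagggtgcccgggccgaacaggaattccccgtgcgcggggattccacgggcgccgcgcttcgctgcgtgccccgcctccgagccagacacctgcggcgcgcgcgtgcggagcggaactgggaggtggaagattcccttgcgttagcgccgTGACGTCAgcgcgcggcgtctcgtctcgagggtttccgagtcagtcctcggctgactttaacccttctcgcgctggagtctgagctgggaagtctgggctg
Izumo1: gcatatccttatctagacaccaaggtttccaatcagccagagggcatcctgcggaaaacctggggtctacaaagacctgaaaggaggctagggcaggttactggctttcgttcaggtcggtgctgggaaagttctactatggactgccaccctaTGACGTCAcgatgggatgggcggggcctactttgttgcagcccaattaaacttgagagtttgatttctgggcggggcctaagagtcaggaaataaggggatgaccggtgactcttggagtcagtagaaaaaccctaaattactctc
P2rx7: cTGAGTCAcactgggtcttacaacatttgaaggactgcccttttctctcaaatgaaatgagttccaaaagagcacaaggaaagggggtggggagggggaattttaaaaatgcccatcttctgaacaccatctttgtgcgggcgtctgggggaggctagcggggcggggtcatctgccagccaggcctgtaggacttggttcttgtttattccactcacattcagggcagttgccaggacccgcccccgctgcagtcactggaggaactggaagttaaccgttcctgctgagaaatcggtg
Mmp12: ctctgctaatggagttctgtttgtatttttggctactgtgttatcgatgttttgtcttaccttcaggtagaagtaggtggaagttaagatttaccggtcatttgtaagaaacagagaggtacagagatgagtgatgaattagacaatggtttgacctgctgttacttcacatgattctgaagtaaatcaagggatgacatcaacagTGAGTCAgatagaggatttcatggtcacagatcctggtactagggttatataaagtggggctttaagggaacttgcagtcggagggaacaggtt
The CRE of Nfkbid lies at bases -51 to -44 from that start and that of Izumo1 at -96 to -89. Each of the P2rx7, Nfkbid and Mmp12 genes has further starts in the table without a match. A CRE was found in 2 of the 50 genes (4%) and 2.03% of all 27025 genes, and AP-1 in 3 (6%: Mmp12, P2rx7 and Slc17a2) against 8.97%. EGR matched 1 (Tex14) against 0.707% of all genes, NF-kB 1 (Tnn) against 0.466%, the CArG box none against 1.81%, and the p53 decamer 3 (6%) against 9.55%. A match is a string in this window and no measure of binding, and sites that differ from the searched patterns are not counted.

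One day after toxin, some of the 72 were already called. CTRL and 1 DPA values together set the ceiling of the choice, so these calls and p-values are not independent of it. By the test 35 were higher at 1 DPA than in CTRL, 1 was lower and 36 did not pass (edgeR adjusted p under 0.05), where 29.2% of all 17294 tested genes were called higher and 22.4% lower. All 72 had passed the filter on low counts. Their median log2 fold change was 1.38, against -0.05 for all genes tested. At 3 DPA the median over CTRL was 4.57. All 1 DPA libraries lay above all of CTRL for 33 (31.1% of tested genes). Rsph4a rose by 3.70 ± 0.20 (log2 fold change ± SE; edgeR adjusted p = 1.47e-07), Nfkbid by 3.38 ± 0.24 (edgeR adjusted p = 1.13e-06) and Zbtb10 by 2.31 ± 0.18 (edgeR adjusted p = 2.25e-06). At 3 DPA Rsph4a, Nfkbid and Zbtb10 stood 5.16, 5.35 and 4.18 over CTRL, so the larger part of their log2 rise was present at day 1. Vgf rose by 0.97 ± 0.26 (edgeR adjusted p = 0.0108), Homer1 by 1.40 ± 0.26 (0.00106) and Ier2 by 1.59 ± 0.34 (0.00338). The one gene called lower was Lsmem1, which passed narrowly at -0.95 ± 0.37 (edgeR adjusted p = 0.0486). Whether its call held without single libraries was not looked at. P2rx7 (-0.06 ± 0.39), Lrrc36 (-0.06 ± 0.39) and Izumo1 (-0.04 ± 0.36) were near 0.

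Fut2, at 3.15 ± 0.77, and Sec1, at 6.03 ± 1.07, were also called at day 1 (edgeR adjusted p = 0.00768 and 0.00116). Atf3, at 2 ± 0.74, passed narrowly (edgeR adjusted p = 0.0496), and 11 of the 12 fits that each left out a library, all but that without CTRL replicate 1, ended its call (adjusted p up to 0.144). Likewise Cwh43 passed at 0.0476 and lost its call in 10 of 12 such fits, all but those without CTRL replicate 1 or 1 DPA replicate 1 (up to 0.139). RP23-345D18.4, at 0.85 ± 0.24 (edgeR adjusted p = 0.0121), lost it without CTRL replicate 1 (0.0612) and Slc17a2 (0.0142) without 1 DPA replicate 3 (0.0587). Olfr221 (0.0374) lost it without any single CTRL library, 1 DPA replicate 3 or 3 DPA replicate 1 (up to 0.241). Other settings ended some of these calls too: for Atf3 a fit of only those 2 groups (0.150), no filter (0.0811) and library sizes without the 50 most abundant genes (0.0589), for Cwh43 the last 2 of these (0.0510 and 0.0565), limma-voom (0.0563) and the replicate block (0.0734), for Olfr221 limma-voom (0.136) and the block (0.0566), and for RP23-345D18.4 limma-voom (0.0626). With the 1 DPA and CTRL libraries alone in the fit, 31 of the 72 did not pass the filter on low counts, and 15 of the other 41 were called higher, where 26% of the 16355 genes tested were.

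At 5 DPA the genes were still raised over CTRL. By the edgeR test 63 were higher, none lower and 9 not called, where 5.87% of all genes tested were called higher and 2.67% lower. The median log2 fold change was 3.24 against 0.01 for all genes. With the CTRL and 5 DPA libraries alone in the edgeR fit, 7 of the 72 did not pass the filter on low counts. Of the other 65, 46 were called higher, where 2.5% of the 16687 genes tested were. Every 5 DPA library lay above every CTRL library for 71 of the 72, all but Spef2 (22.7% of all tested genes), and above every CTRL and 1 DPA library for 52 (9.57%). CTRL values helped to choose the genes, so these p-values are not independent of the choice. Rsph4a was higher by 3.12 ± 0.19 (edgeR adjusted p = 3.12e-05), Zbtb10 by 2.61 ± 0.18 (8.24e-05), Nfkbid by 3.22 ± 0.24 (0.000119) and Izumo1 by 3.39 ± 0.32 (0.000245). P2rx7 was higher by 3.47 ± 0.38 (edgeR adjusted p = 0.00159), Vgf by 1.94 ± 0.27 (0.00365), Gdnf by 2.68 ± 0.36 (0.00185) and Sema6a by 1.59 ± 0.24 (0.00419). For these 8 genes no fit that left out 1 library ended the call. The genes not called were Tbx21, F830045P16Rik, Spef2, Mamstr, Tg, Rasl11b, Tac1, Slc17a2 and Lat, of which Tac1 was at 0.65 ± 0.25 (edgeR adjusted p = 0.134) and Tbx21 at 1.63 ± 0.64 (0.140).

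Some calls at 5 DPA depended on single libraries. Atf3, at 3.93 ± 0.77 over CTRL (edgeR adjusted p = 0.0184), lost its call without CTRL replicate 2 or 5 DPA replicate 1 (up to 0.0622) and Fut2, at 4.06 ± 0.77 (0.0157), without CTRL replicate 2 or 3 (up to 0.0670). Ier2, at 1.58 ± 0.34 (edgeR adjusted p = 0.0228), lost it when replicate 2 or 3 of CTRL, or replicate 1 or 2 of 5 DPA, was left out (up to 0.0864). Ptgs2, at 3.62 ± 0.77 (0.0216), did so on leaving out replicate 2 or 3 of CTRL or replicate 1 or 3 of 5 DPA (up to 0.0732). Mmp12, at 2.46 ± 0.51 (0.0181), did so on leaving out replicate 2 or 3 of CTRL or replicate 1 of 5 DPA (up to 0.0693), and Mgl2, at 1.84 ± 0.44 (0.0281), on leaving out replicate 2 of CTRL or replicate 1 or 3 of 5 DPA (up to 0.108). Lrrc36, at 1.67 ± 0.38 (edgeR adjusted p = 0.0290), and RP23-345D18.4, at 1.00 ± 0.24 (0.0287), did so without any 1 of the 6 CTRL and 5 DPA libraries (up to 0.0964 and 0.0853). With the replicate number as a block, Mgl2 and RP23-345D18.4 were not called (0.0512 and 0.0558), and limma-voom ended the call of the latter (0.0824). With the CTRL and 5 DPA libraries alone in the edgeR fit, Atf3 (adjusted p = 0.0933), Ier2 (0.0800), Ptgs2 (0.0797), Mmp12 (0.0897), Mgl2 (0.120), Btc (0.0711) and Cwh43 (0.0654) were not called.

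From 3 to 5 DPA the general movement was down. The 3 DPA values helped to choose the genes, so a fall is favoured by the choice. The edgeR test called 21 of the 72 lower and none higher, where 2.46% of all tested genes were called lower and 0.705% higher. With the replicate number as a block it called 13 lower, though no label says that libraries of the same number belong together. The median log2 fold change was -1.39, against -0.01 over all genes tested. All 5 DPA libraries lay below all of 3 DPA for 58 of the 72 (12.1% of tested genes). The ratio of the 5 DPA to the 3 DPA mean ran from 0.145 to 1.47 with a median of 0.389: under 0.25 for 9 genes, between 0.25 and 0.5 for 43, and above 1 for 5. Rsph4a fell by 2.04 ± 0.17 on the log2 scale (edgeR adjusted p = 0.000919), Nfkbid by 2.13 ± 0.21 (0.00189) and Zbtb10 by 1.56 ± 0.17 (0.00335), and no fit that left out 1 library ended these 3 calls.

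Other named falls were less secure against the loss of a library. Vgf fell by 1.51 ± 0.26 (edgeR adjusted p = 0.0217) and lost its call without 3 DPA replicate 1 or 3 or any 5 DPA library (up to 0.104) and in a fit of only the 2 groups (0.0570), and Ier2 fell by 1.69 ± 0.34 (0.0334) and lost it in 7 of the 12 fits that left out 1 library, among them each 5 DPA library, 3 DPA replicate 1 or 3 and 1 DPA replicate 1 or 2 (up to 0.141), and with no filter (0.0659). Homer1 fell by 1.57 ± 0.25 (edgeR adjusted p = 0.0169) and RP23-345D18.4 by 1.47 ± 0.23 (0.0147), and each lost its call without any 1 of the 5 DPA libraries (up to 0.0936 and 0.0859). Nell2 fell by 1.66 ± 0.26 (edgeR adjusted p = 0.0147) and lost it also without 3 DPA replicate 1 (up to 0.0699). Tac1 fell by 1.22 ± 0.24 (0.0289) and lost it without any 1 of the 6 libraries compared (up to 0.135). Gm12766 fell by 2.22 ± 0.29 (0.0107) and lost it without 3 DPA replicate 1 or 5 DPA replicate 2 or 3 (up to 0.0586).

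Ucp1 and Slc17a2 fell by 2.31 ± 0.48 and 2.60 ± 0.57 (edgeR adjusted p = 0.0303 and 0.0337). Ucp1 lost its call on leaving out replicate 2 of CTRL, replicate 1 or 3 of 3 DPA or any 5 DPA library (up to 0.164). Slc17a2 lost it in 8 of the 12 such fits, those that left out replicate 2 of CTRL or of 1 DPA or any 3 or 5 DPA library (up to 0.189), and neither was called with the block (0.0604 and 0.0701). P2rx7 and Atf3 had lower means at 5 DPA, at -0.97 ± 0.34 and -1.41 ± 0.66, that did not pass the threshold (edgeR adjusted p = 0.170 and 0.316). By both tests together 17 genes were higher than CTRL and lower than 3 DPA, 46 were higher than CTRL with no call against 3 DPA, 4 were lower than 3 DPA with no call against CTRL, and 5 had neither call.

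**Figure D4:**
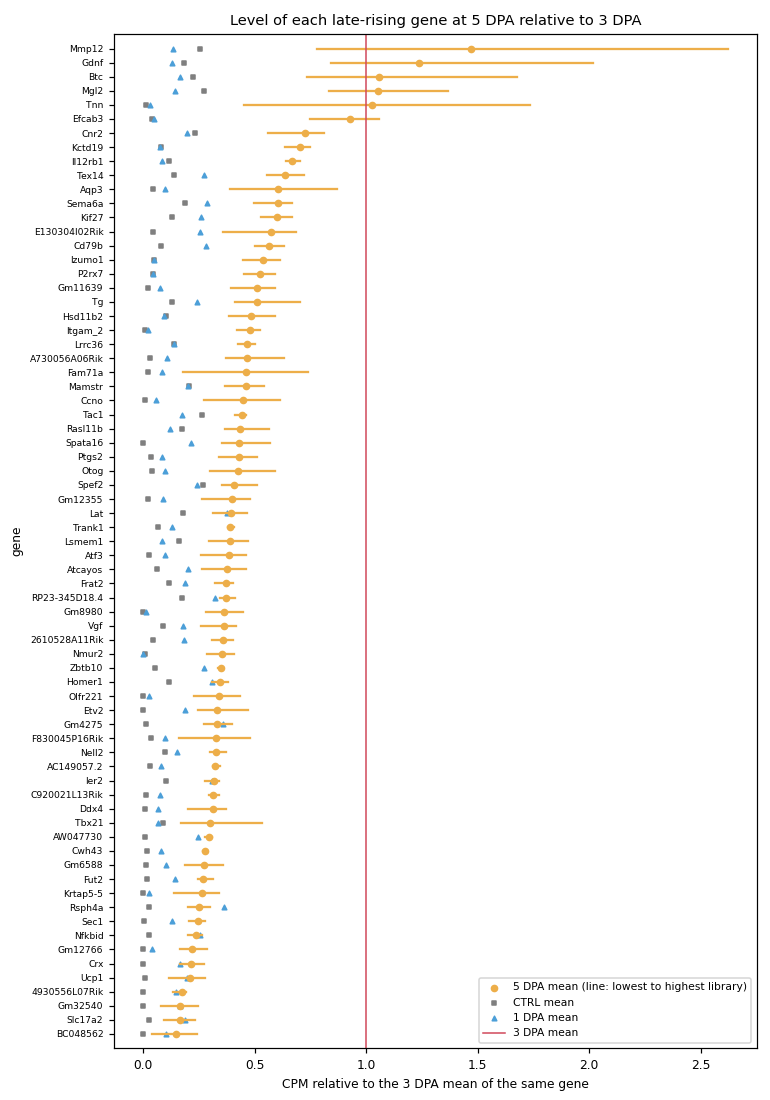
For 71 of the 72 genes, the 5 DPA mean (circle, with a line from the lowest to the highest library), the CTRL mean (square) and the 1 DPA mean (triangle), all as a ratio to the gene's 3 DPA mean. Most circles lie between 0.25 and 0.5, to the right of both squares and triangles, and 5 lie above 1.

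Only Btc, Gdnf, Mgl2, Mmp12 and Tnn had a 5 DPA mean above that of 3 DPA, with ratios of 1.06, 1.24, 1.05, 1.47 and 1.03. All 5 had their highest 5 DPA value in replicate 1, the library in which stromal markers were also highest, at 5625 CPM against 3284 and 3425 in the others. Over 5 DPA replicates 2 and 3 alone the ratios were 0.748, 0.848, 0.898, 0.894 and 0.674. None of these genes was called between 3 and 5 DPA (edgeR adjusted p from 0.640 for Mmp12 to 0.996 for Tnn). Stromal markers were not alone in being highest in 5 DPA replicate 1. Schwann cell markers summed to 167 CPM there against 110 and 110 in the others, and alpha cell markers to 36213 against 23029 and 20670. Genes of S phase and mitosis summed to 336 against 192 and 210. Endothelial, duct, and delta and PP markers were also highest there, whereas macrophage and acinar markers were highest in replicate 3. The part of stromal or any other cells in the values of the 5 genes was not tested. Against 1 DPA, the edgeR test called 47 of the 72 higher and 1 lower at 5 DPA, beside 26.3% and 29.8% of all tested genes. With only those 2 groups in the fit, 7 of the 72 did not pass the filter on low counts. Of the other 65, 48 were called higher and 1 lower, beside 29.2% and 29.3% of the 16652 genes tested.

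Which library of a group was highest was counted over the 72 genes. The 3 DPA replicate 1 library was the highest of its group for 67 of the 72 (43.1% of all tested genes), and Tac1, Lat, Spata16 and Tex14 were among the exceptions. At 1 DPA replicate 3 was highest for 51 (60.2%). The choice used the values of both groups, so these counts are not independent of it. At 5 DPA, which it did not use, replicates 1, 2 and 3 were highest for 35, 16 and 21. The share over all tested genes was not computed for 5 DPA. Closest to the limit of the choice were Ier2 and Sema6a at 2.03, Homer1 at 2.05 and RP23-345D18.4 at 2.07 times the highest earlier library, and just outside it Zfp711 at 1.996, March10 at 1.99, Taf4b at 1.98 and Ntn5 at 1.97.

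Related genes outside the 72 were counted in the same comparisons. Members of the 72 are left out of the counts that follow. Against CTRL, 29.2% of all tested genes were called higher and 22.4% lower at 1 DPA, and 5.87% and 2.67% at 5 DPA. Between 3 and 5 DPA 2.46% were called lower and 0.705% higher. A count near these shares shows nothing particular to its list. Of 40 other activity-regulated and delayed early genes, 20 were higher and 2 lower at 1 DPA than in CTRL, 16 were higher and none lower at 3 DPA (10.2% and 2.37% of all tested genes) and 11 at 5 DPA, and 4 were lower at 5 DPA than at 3 DPA. Maff and Crem, both bZIP factors, had means of 200 and 139 CPM at 1 DPA against 197 and 67.2 at 3 DPA, so they had peaked or levelled by day 1. Npas4, a neuronal activity factor, had means of 1.43, 6.27, 20.013 and 11.4 CPM over CTRL and 1, 3 and 5 DPA, an order like that of the 72. Of 15 inhibitors of MAP kinase signalling 6 were higher and 1 lower at 1 DPA, 5 higher at 3 DPA and 4 at 5 DPA, with Dusp8 at 29.956, 563, 512 and 184 CPM.

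Of 12 NF-kB feedback genes, 9 were higher and 1 lower at 1 DPA, 6 higher at 3 DPA and 4 at 5 DPA. Nfkbia, the main inhibitor, had means of 37.3, 203, 163 and 93.4 CPM, earlier than Nfkbid. Among 16 other neuropeptides and secreted activity-regulated proteins 2 were higher and 3 lower at 1 DPA, 4 higher at 3 DPA, and 2 higher and 1 lower at 5 DPA. Among 22 other cytokines and growth factors the counts were 3 higher and 8 lower, then 3 and 2, then 3 and 1, and Igf2, at 12.4, 873, 380 and 175 CPM, was highest at day 1. Of 15 other remodelling and acute phase genes 3 were higher and 3 lower at 1 DPA, and 4 were higher at each of 3 and 5 DPA. Sprr1a, a cornified envelope protein of injured tissue, had 0.0775, 1.52, 9.67 and 5.46 CPM.

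Of the 8 fucosyltransferases tested besides Fut2 and Sec1, edgeR called 0 at 3 and at 5 DPA against CTRL (1 each time at an unadjusted p under 0.05; at 5 DPA 1 by DESeq2 and 0 by limma-voom), and at day 1 it called 1 higher and 5 lower. Of 18 p53 targets 10, 10 and 8 were higher at 1, 3 and 5 DPA and 2, 1 and 0 lower, and Cdkn1a, the cell cycle inhibitor p21, had means of 36.3, 93.9, 287 and 136 CPM. Of 13 genes of the integrated stress response 5, 4 and 3 were higher and 1, 0 and 0 lower, of 10 chaperones 0, 0 and 2 higher and 1, 0 and 0 lower, of 14 cytoskeletal targets of serum response factor 1, 0 and 0 higher and 4, 0 and 0 lower, and of 19 glycogen genes 5, 2 and 1 higher and 7, 1 and 0 lower. Of 20 genes of S phase and mitosis 5 were higher and 6 lower at 1 DPA, 4 higher at 3 DPA and 16 at 5 DPA, 11 of the 20 being higher at 5 DPA than at 3 DPA, the opposite order to the 72. Mki67 had means of 9.46, 4.88, 7.57 and 23.3 CPM. Of 13 beta cell genes 10, 5 and 7 were lower than CTRL at 1, 3 and 5 DPA and 1, 0 and 0 higher.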

How the data were processed

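RNA of 12 islet libraries in 4 groups of 3 was extracted on RNeasy columns, and libraries were made with a stranded mRNA kit of the QIAseq line, per the labels' protocols. Gene-level values were deposited by the authors as whole-number counts and as TPM, per the file headers. TPM was used to compare levels between genes and for 1 alternative choice of members. The submitters' processing notes name the build mm10. For the aligner, the counter and its strand setting, nothing is given in the sources used here. A further 24 columns of per-sample values were not used. Of the members, 1 is counted but not reported here by name or value.

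The members and lists were chosen with earlier results of these data known, and the B cell, T and natural killer cell, germ cell and cilia marker lists were added after values were seen. CPM, a count over its column sum, chose the members. For tests, the 17294 genes passing filterByExpr (minimum count 10) entered an edgeR quasi-likelihood fit of all 12 libraries with TMM factors and robust estimation, and a call needs a Benjamini-Hochberg adjusted p under 0.05 over these genes. An SE is the log2 fold change over the root of its F statistic. The fit was tested on simulated data. Counting intervals are exact at 95% and, like the floor of 3 counts, cover counting error only. Coordinates came from GENCODE M21, where 48349 identifiers matched. Tools were R 4.3.3, edgeR 4.0.16, limma 3.58.1, DESeq2 1.42.0 and Python 3.11.15.

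Genes were named by rule: the 15 of highest 3 DPA mean CPM, the 15 of highest ratio of the lowest 3 DPA to the highest earlier library, members of the fixed lists, and the 5 highest and 5 lowest ratios of 5 to 3 DPA. By that rule predicted or clone-named genes enter only among the first 5 by level or by ratio to the earlier libraries. Other members are named where a count, a locus or a list calls for it, and these were chosen after their values were seen. The 4 genes just inside and outside the limit were added. Deviations of same-number libraries from their group means correlated at 0.156 to 0.326 between 3 and 5 DPA, above 0.1 for all 3 pairs. For no other pair of groups did all 3 pairs pass. Libraries of different number correlated at -0.263 to 0.112 between 3 and 5 DPA, but at up to 0.358 between CTRL and 3 or 5 DPA. The same-number values are therefore weak grounds for a pairing, and the labels say nothing of a shared batch. Alternatives were a fit by DESeq2 or by limma-voom, RLE size factors, omitting the 50 most abundant genes from library sizes, testing without the filter, fitting the compared groups alone, a replicate block, and leaving out each library.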

Additional observations from a re-analysis of the deposited data

How the results depend on the processing

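The number of genes meeting the choice was 110 at a factor of 1.5, 37 at a factor of 3 and 31 with a 3 DPA mean of at least 5 CPM, 90 without the 50 most abundant genes, 76 with TMM library sizes (70 shared) and 60 from the TPM columns (50 shared); leaving out 1 library gave 65 (without 3 DPA replicate 1) to 114 (without 1 DPA replicate 3). Members lower at 5 than at 3 DPA numbered 37 by DESeq2, 42 by limma-voom, 37 with only those 2 groups and 13 with the replicate block, against 21, and 3 to 30 on leaving out 1 library: 5, 13 and 10 without 3 DPA replicate 1, 2 and 3, and 4, 3 and 3 without 5 DPA replicate 1, 2 and 3. Members higher at 1 DPA than in CTRL numbered 15 with only those 2 groups (41 members tested), against 35, and 25 to 34 on leaving out 1 library. Members higher at 5 DPA than in CTRL ranged over 46 to 62 in such fits and did not move by over 1.5 times under any setting. The block ended the calls of Mgl2, RP23-345D18.4, Ucp1 and Slc17a2 named in the report and, at 1 DPA, of Cwh43 and Olfr221. It ended no other call given there for a gene named by rule. Members named for other reasons, such as Lsmem1, were not followed singly through these settings.

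Log2 differences near 0 changed sign with no call on either side. Between 3 and 5 DPA, Btc was -0.036 by limma-voom and -0.054 with the replicate block, and Tnn 0.012 by DESeq2, 0.014 with RLE size factors, 0.043 without the 50 most abundant genes and 0.028 with no filter. On leaving out 1 library, Btc ranged from -0.44 to 0.22, Gdnf from -0.25 to 0.46, Mgl2 from -0.17 to 0.16, Mmp12 from -0.18 to 0.80 and Tnn from -0.57 to 0.34. Between CTRL and 1 DPA, P2rx7 was 0.016 with the block, and leaving out 1 library gave -0.39 to 0.13 for P2rx7, -0.25 to 0.25 for Izumo1, -0.47 to 0.10 for Lrrc36 and -0.85 to 0.031 for Tbx21.

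Over all genes, 1016 were higher and 461 lower at 5 DPA than in CTRL (418 to 1545 and 204 to 855 over the other settings, 405 to 1330 and 57 to 807 on leaving out 1 library), and 122 higher and 425 lower than at 3 DPA (99 to 416 and 241 to 761, then 3 to 384 and 23 to 634). The lowest of these 4 counts came without 5 DPA replicate 1, except the last, without 5 DPA replicate 2. The cause of these changes was not tested. A CTRL mean under 1 CPM was seen for 50 members, whose fitted fold changes depend on edgeR's prior count and are no bounds.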
